A study of Mus musculus with 2 samples.

Results

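The 10 genes described here encode the feedback layer of the MAPK (Ras to ERK) pathway: Dusp4, Dusp5, Dusp6, Spry1, Spry2, Spry4, Spred1, Spred2, Etv4 and Etv5. They were taken by name from the 32286 features of a single-cell RNA-seq data set of mouse skin, and all 10 were found in both libraries. Their levels were followed across both libraries and across keratinocyte states defined by marker genes that are not members of the group. The label feedback inhibitor fits the first 8 genes by their known function, whereas Etv4 and Etv5 are transcription factors that ERK signalling induces. Both are often read together with the inhibitors.

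The study asked about the role of Survivin, encoded by Birc5, in the formation of basal cell carcinoma. Control cells were from mice of the genotype Involucrin-CREER/Rosa-SmoM2, whose CreER recombinase is driven by the involucrin promoter and switches on SmoM2, an active form of the hedgehog signal transducer Smoothened, together with YFP. The GOF library had the same alleles with 2 additions, Krt14rtTA, a transactivator driven by the Krt14 promoter, and the gain-of-function allele Survivin GOF. Both thus carry SmoM2, and no library without SmoM2 was analysed here. Cells had been sorted from skin epidermis for high α6 integrin, for YFP and against CD34. Age, treatment, time after induction and the number of mice in each library are not given in the sources used here. There was 1 library per genotype, so differences between genotypes have no replicate check and no test, and every interval below covers counting error only.

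In keratinocytes, growth factors of the EGF and FGF families activate receptor tyrosine kinases, which signal through Ras, Raf and MEK to the kinase ERK. Active ERK induces genes whose products switch the pathway off again. The dual-specificity phosphatases (Dusp) remove phosphate from ERK, Sprouty (Spry) proteins act between receptor and Raf, and Spred proteins act on Ras with the help of neurofibromin. Because ERK induces many of these genes, their transcripts are widely used as a readout of pathway output.

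Promoter sequences of 7 of the 10 genes were in the RefSeq table used (build GRCm38.p6, the build called mm10 in the labels). Each window of 250 bases before the transcription start was searched on both strands for an ETS core (CCGGAAG), a cyclic AMP response element (TGACGTCA), an AP-1 element (TGANTCA) and a CArG box, the core of the serum response element. No motif lies within another. Of 32851 promoter windows in the table, 6.91% held the ETS core, 1.55% the cyclic AMP response element, 6.75% the AP-1 element and 1.47% a CArG box. Among the member windows searched, only that of Dusp5 held a match, a pair of adjacent CArG boxes at 82 to 73 and 72 to 63 bases before the RefSeq start. The Dusp5 sequence is shown for these boxes, in capitals, at chr19:53528895-53529108 on the plus strand. Its last 36 bases, which are annotated as untranslated region, were left out, and AC137853.2 overlaps the Dusp5 gene on the opposite strand. Spred1 (chr2:117120821-117121070, plus strand) and Spry2 (chr14:105896820-105897069, minus strand) are shown as the best-counted gene that was higher in GOF and the gene with the largest decrease, and their windows held none of these letters. All are printed 5′ to 3′, and a match is a description of the letters only.
Dusp5: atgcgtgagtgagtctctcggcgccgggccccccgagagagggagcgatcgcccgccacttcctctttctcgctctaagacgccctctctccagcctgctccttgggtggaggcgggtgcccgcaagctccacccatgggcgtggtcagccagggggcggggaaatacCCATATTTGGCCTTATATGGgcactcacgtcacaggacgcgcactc
Spred1: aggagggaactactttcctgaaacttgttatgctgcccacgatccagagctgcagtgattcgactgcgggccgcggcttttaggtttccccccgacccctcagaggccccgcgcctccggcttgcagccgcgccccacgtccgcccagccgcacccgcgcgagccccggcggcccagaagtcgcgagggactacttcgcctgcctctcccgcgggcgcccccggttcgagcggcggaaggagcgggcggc
Spry2: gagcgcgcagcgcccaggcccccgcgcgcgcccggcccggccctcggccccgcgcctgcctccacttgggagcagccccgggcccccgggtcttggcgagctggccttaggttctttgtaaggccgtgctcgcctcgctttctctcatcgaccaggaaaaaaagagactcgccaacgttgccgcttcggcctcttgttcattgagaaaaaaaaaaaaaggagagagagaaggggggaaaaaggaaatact

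The kept cells numbered 10294 in the control library (median 7648 UMIs) and 6494 in the GOF library (median 12324.5 UMIs), and 20 cell barcodes occurred among the kept cells of both. Birc5, the targeted gene, had 51.8 CPM (UMIs of a gene per 1000000 UMIs of the cells summed) among control keratinocytes and 750 CPM among GOF keratinocytes. YFP, for which the cells had been sorted, was not level between the libraries. It had 10.9 CPM among control and 4.36 CPM among GOF keratinocytes (ratio 0.402, interval 0.356 to 0.453). The part of this difference in the ratios below was not tested. The libraries differed in sex. Of the control keratinocytes 6596 were male-called (a Y-linked UMI and none of Xist) and 25 female-called, against 1661 and 3141 in GOF. A cell was given the state whose marker list stood highest above expectation, by at least 2-fold. After cells that took a melanocyte, immune, fibroblast or endothelial list were set apart, 9123 control and 5614 GOF keratinocytes remained, with 88822805 and 85538269 UMIs. These held 8 states and unassigned cells, which were 27.7% of the control keratinocytes and 37.4% in GOF.

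Some labels did not hold. The cells taking the bulge list had none of its 7 markers among their 10 leading genes, and Cd34, the gate's marker, was at 1.10 CPM in the control library and 8.24 CPM in GOF. They are called Postn- and Lhx2-rich cells below. The cells taking the fibroblast list (809 control, 679 GOF) drew 97.6% and 99.5% of the list's UMIs from Dcn alone, had 0.128 and 0.0835 CPM of the fibroblast marker Pdgfra, and had the keratin Krt5 at 6771 and 5531 CPM. They are called Dcn-rich cells and stayed outside the keratinocytes, and each library ratio was also computed with Dcn taken out of the list. Their YFP level was 29.0 and 33.0 CPM, beside 32.7 and 28.6 CPM in hedgehog-high cells. With Dcn and Egfl7 out of the lists, hedgehog-high cells numbered 1458 in place of 1114 in control and 901 in place of 506 in GOF, so the hedgehog-high state described below leaves many such cells out. In hedgehog-high cells 3 of 9 markers were among the 10 leading genes in control and 1 of 9 in GOF. Between 48.0% and 54.3% of these cells passed the threshold for more than 1 list, and 184 and 54 of them lay near it (1.5-fold to 2.5-fold). More than 1 list was also passed by 51.0% of control and 50.6% of GOF upper follicle-like cells. The shares were 51.5% and 36.8% for Postn- and Lhx2-rich, 37.9% and 45.0% for scale-like, and 56.1% and 50.4% for melanocyte-list cells. They were lower for sebaceous-like (28.8% and 20.7%), Ntrk2 Adh7 Ptprz1 (30.6% and 23.4%), suprabasal-like (13.5% and 6.71%) and basal-like cells (7.37% and 4.77%).

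Across all keratinocytes, Spry2 was the member that differed most between the libraries, lower in GOF, and Spry1, Dusp6, Etv4 and Etv5 were lower by less. Spred1 and Spred2, the most heavily counted members, were modestly higher in GOF. The direction of the group was therefore mixed, lower for the Sprouty genes Spry1 and Spry2 and higher for both Spred genes. Past 1.5-fold, 1 of the 10 members was lower (Spry2) and 0 were higher. Of the 14337 genes with at least 50 pooled UMIs, 6.31% were lower and 5.92% higher by that fold, so the members' counts lie near the background. The median log2 ratio of GOF to control was −0.28 over the 10 members and 0.06 over all genes. The 10th and 90th percentiles over all genes were −0.40 and 0.44. All 10 members had at least 50 pooled UMIs.

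**Figure D1:**
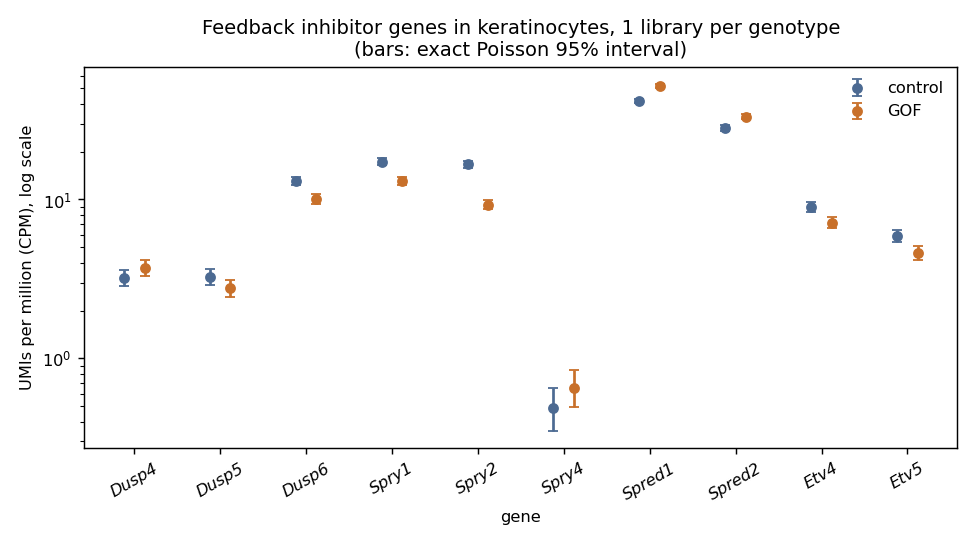
Level of each member gene in all keratinocytes, in CPM on a log axis, for the control library (blue) and the GOF library (orange). Points are library values and bars exact Poisson 95% intervals. Spry2 shows the widest gap, 16.6 against 9.29 CPM, and only Dusp4, Spred1, Spred2 and Spry4 sit higher in GOF.

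Dusp6 encodes the cytoplasmic phosphatase specific for ERK (ENSMUSG00000019960, chromosome 10, 99263231 to 99267489 in mm10). Keratinocytes had 13.1 CPM of it in the control library and 10.1 CPM in GOF, 1.30-fold lower in GOF (ratio 0.767, interval 0.702 to 0.839). Its levels were highest in Postn- and Lhx2-rich cells (25.2 and 21.6 CPM) and in upper follicle-like cells (24.0 and 21.3 CPM), which did not differ beyond counting error in either library. The lowest levels were in suprabasal-like cells of the control (4.73 CPM) and in scale-like cells of GOF (2.13 CPM). The order of the 9 states was close in both libraries (Spearman's rho 0.93 over 9 states, as a description). Among states with at least 100 Dusp6 UMIs in each library, the widest gap between genotypes was in Ntrk2 Adh7 Ptprz1 cells, with 22.3 against 9.66 CPM (ratio 0.434, interval 0.333 to 0.564). Scale-like cells, with fewer UMIs (63 in control, 10 in GOF), had a lower ratio of 0.367 (interval 0.168 to 0.720). In hedgehog-high cells it was 19.1 against 16.0 CPM, and that interval held 1.

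Dusp4 encodes a nuclear phosphatase that acts on ERK and other MAP kinases (ENSMUSG00000031530, chromosome 8, 34807297 to 34819894). Among the keratinocyte states it was concentrated in sebaceous-like cells, the lipid-producing cells of the gland, which held 223 of its 285 UMIs in control and 286 of its 317 in GOF. The level there was 31.4 CPM (interval 27.5 to 35.9) in control and 58.8 CPM (52.2 to 66.0) in GOF. The next state stood at 1.26 CPM in control (unassigned cells) and 0.912 CPM in GOF (Ntrk2 Adh7 Ptprz1 cells), so that sebaceous-like cells were 25.0-fold (interval 17.2 to 37.5) and 64.5-fold (34.6 to 136) higher than the next. No other pair of neighbours in the order differed beyond counting error. Within sebaceous-like cells Dusp4 was 1.87-fold higher in GOF (interval 1.56 to 2.24), and in unassigned cells it was lower (ratio 0.412, interval 0.207 to 0.783). After thinning to 3000 UMIs, 6.96% of 503 control and 15.4% of 169 GOF sebaceous-like cells held a Dusp4 UMI, and 31.2% and 68.0% did at full depth. In suprabasal-like cells the thinned shares were 0.110% and 0.319%, with median depths of 7504.5 and 12267 UMIs against 13255.5 and 25698 UMIs in sebaceous-like cells. All 9 sebaceous markers held UMIs in every state of both libraries, and their summed level in states other than the sebaceous one ranged from 233 to 629 CPM in control and from 43.8 to 432 CPM in GOF. Among these other states upper follicle-like cells had the most of the sebaceous markers, and they held no Dusp4 UMI in control and 1 in GOF. In unassigned cells, where Dusp4 was lower in GOF, their sum was 557 CPM for the control and 154 CPM for GOF. Their part in those levels was not tested.

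Over all keratinocytes Dusp4 was 3.21 CPM in control and 3.71 CPM in GOF (ratio 1.15, interval 0.981 to 1.36). This ratio rested on the sebaceous-like cells. Without them its log2 ratio was −0.98, and with cells limited to 5% mitochondrial UMIs it was −1.16. That limit left 63 of the 285 Dusp4 UMIs in control and 34 of the 317 in GOF. The sebaceous-like state changed with it, from 504 to 528 control cells (43 Dusp4 UMIs) and from 169 to 47 GOF cells (24 Dusp4 UMIs).

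Dusp5 encodes a nuclear phosphatase that is specific for ERK (ENSMUSG00000034765, chromosome 19, 53529109 to 53542431). Its level over all keratinocytes was 3.26 CPM in the control library and 2.76 CPM in GOF, and the interval of the ratio held 1 (0.709 to 1.01). AC137853.2 overlaps it on the opposite strand. Upper follicle-like cells, which line the opening of the hair follicle, stood above all other states in both libraries, at 10.9 CPM (interval 7.99 to 14.6) and 9.89 CPM (7.41 to 12.9). They exceeded the next state 2.15-fold in control (interval 1.33 to 3.53) and 2.58-fold in GOF (1.49 to 4.69). The lowest level was in hedgehog-high cells of both libraries, at 1.62 and 0.700 CPM. The single cell with most Dusp5 UMIs held 14 of the 236 in the GOF library.

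**Figure D2:**
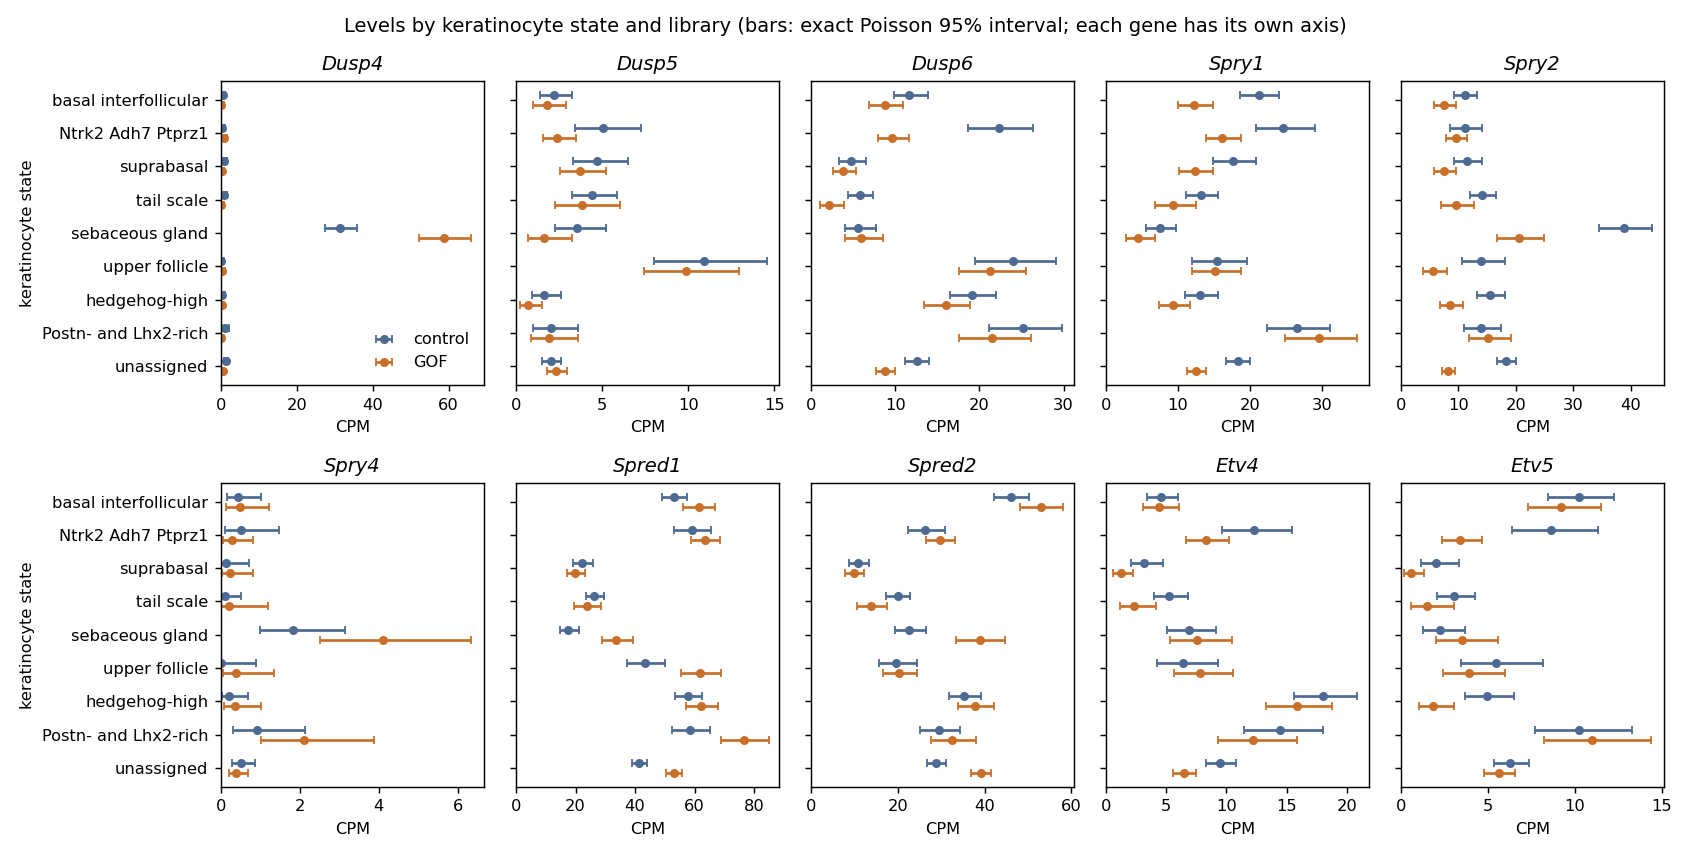
Level of each member gene in CPM (horizontal axes, each gene with its own) in 8 keratinocyte states and in unassigned cells, for control (blue) and GOF (orange). Points are library values and bars exact Poisson 95% intervals. Dusp4 is high in sebaceous-like cells (31.4 and 58.8 CPM), Dusp5 in upper follicle-like cells (10.9 and 9.89 CPM) and Etv4 in hedgehog-high cells (18.1 and 15.9 CPM).

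Spry2 encodes a Sprouty adaptor that is phosphorylated after growth factor stimulation and restrains Ras activation (ENSMUSG00000022114, chromosome 14, 105891947 to 105896819, minus strand). It had 1478 UMIs (16.6 CPM, interval 15.8 to 17.5) in control and 795 UMIs (9.29 CPM, interval 8.66 to 9.96) in GOF keratinocytes, 1.79-fold lower in GOF (interval 1.64 to 1.95). It was lower in GOF in 8 of 9 states, and the interval lay below 1 in 7. The ratio was 0.400 in upper follicle-like, 0.450 in unassigned, 0.528 in sebaceous-like and 0.557 in hedgehog-high cells. The exception was the Postn- and Lhx2-rich cells, with 13.9 against 15.2 CPM (interval of the ratio 0.783 to 1.53). Spry2 was highest in sebaceous-like cells of both libraries, at 38.9 and 20.6 CPM. In control these exceeded the next state 2.12-fold (interval 1.82 to 2.47), and in GOF the interval against the next held 1 (0.988 to 1.86). Thinned to 3000 UMIs, a Spry2 UMI was found in 4.48% of the control keratinocytes and 2.498% in GOF, whereas at full depth it was in 13.4% and 11.95%. No cell type that should lack Spry2 is known for these samples, and in the immune cells the thinned shares were 4.40% of 91 and 1.79% of 56 cells, with median depths of 10587 and 18345 UMIs. The keratinocyte shares, at median depths of 7582 and 12104 UMIs, did not stand above these.

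Spry1, another Sprouty gene (ENSMUSG00000037211, chromosome 3, 37639947 to 37644598), was lower in GOF in 8 of 9 states, with the interval below 1 in 6. Over all keratinocytes it went from 17.3 CPM in the control library to 13.1 CPM in GOF, 1.32-fold lower in GOF (ratio 0.756, interval 0.700 to 0.817). Basal-like cells showed 21.2 against 12.3 CPM (ratio 0.579) and Ntrk2 Adh7 Ptprz1 cells 24.6 against 16.1 CPM (ratio 0.655). The level in Postn- and Lhx2-rich cells, the highest in both libraries, was 26.5 and 29.6 CPM, and that ratio's interval held 1. The lowest level was in sebaceous-like cells, at 7.47 and 4.52 CPM, the state in which Spry2 was highest. Gm42922 overlaps Spry1 on the opposite strand.

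Spry4 (ENSMUSG00000024427), the third Sprouty gene, was sparsely counted, with 43 UMIs in control (0.484 CPM) and 56 in GOF (0.655 CPM). The interval of its ratio held 1 (0.893 to 2.06). Sebaceous-like cells held 13 and 20 of these UMIs, at 1.83 and 4.11 CPM (ratio 2.24, interval 1.06 to 4.91).

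Spred1 encodes a Sprouty-related protein that recruits neurofibromin to the membrane (ENSMUSG00000027351, chromosome 2, 117121374 to 117182279). Its level was 41.7 CPM (interval 40.4 to 43.1) in control and 51.8 CPM (50.3 to 53.3) in GOF keratinocytes, with a ratio of 1.24 (1.19 to 1.30). The ratio was above 1 in 7 of 9 states, and its interval lay above 1 in 5. It was widest in sebaceous-like cells, with 17.6 against 33.7 CPM (ratio 1.91, interval 1.51 to 2.43), and next in upper follicle-like cells, with 43.2 against 61.8 CPM (ratio 1.43). Suprabasal-like cells (22.2 and 19.9 CPM) and scale-like cells (26.3 and 23.8 CPM), which are differentiating cells, had ratios below 1 with intervals that held 1.

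Spred2, its paralog (ENSMUSG00000045671, chromosome 11, 19924375 to 20024026), had 28.1 CPM over all control keratinocytes and 33.2 CPM over those of GOF (ratio 1.18, interval 1.12 to 1.24). It was highest in basal-like cells of both libraries, at 46.1 and 53.0 CPM, above the next state by 1.30-fold (interval 1.14 to 1.49) and 1.35-fold (1.21 to 1.51). The ratio between libraries was 1.71 in sebaceous-like cells (22.7 against 38.8 CPM) and 1.35 in unassigned cells (28.9 against 39.1 CPM). In scale-like cells it was lower in GOF, with 19.97 against 13.8 CPM (ratio 0.692, interval 0.516 to 0.917).

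Etv4 encodes an ETS transcription factor of the PEA3 group (ENSMUSG00000017724, chromosome 11, 101769742 to 101785371, minus strand). Its level was 8.94 CPM over control keratinocytes and 7.13 CPM over those of GOF, 1.254-fold lower in GOF (ratio 0.798, interval 0.717 to 0.888). It was highest in hedgehog-high cells, at 18.1 CPM (interval 15.6 to 20.8) and 15.9 CPM (13.3 to 18.8), and next in Postn- and Lhx2-rich cells, at 14.4 and 12.3 CPM. These states did not differ beyond counting error in either library. The Dcn-rich cells, outside the keratinocytes, had 16.2 CPM in control and 20.4 CPM in GOF, a ratio of 1.26 (interval 1.01 to 1.57). With Dcn and Egfl7 taken out of the lists, so that most of these cells counted as keratinocytes, the log2 ratio of Etv4 between libraries changed from −0.33 to −0.10. The lowest Etv4 levels were in suprabasal-like cells, at 3.19 and 1.23 CPM.

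Etv5, of the same group (ENSMUSG00000013089, chromosome 16, 22381309 to 22439719, minus strand), had 5.90 CPM over control keratinocytes and 4.63 CPM over those of GOF, 1.27-fold lower in GOF (ratio 0.785, interval 0.687 to 0.896). Its highest states were Postn- and Lhx2-rich cells (10.2 and 10.99 CPM) and basal-like cells (10.2 and 9.22 CPM), unlike Etv4, which had 4.54 and 4.37 CPM in basal-like cells. The ratio between libraries was 0.377 in hedgehog-high cells (4.95 against 1.87 CPM, interval 0.201 to 0.672) and 0.392 in Ntrk2 Adh7 Ptprz1 cells (8.61 against 3.37 CPM, interval 0.249 to 0.610). In basal-like cells the interval held 1 (0.669 to 1.21).

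By state, the median log2 ratio of GOF to control over the members with at least 50 pooled UMIs in the state ranged from −0.59 in Ntrk2 Adh7 Ptprz1 cells (8 members) to 0.14 in sebaceous-like cells (7 members). Over all genes it ranged from −0.01 in scale-like and suprabasal-like cells to 0.16 in sebaceous-like cells. The share of all genes lower in GOF ranged from 33.4% in sebaceous-like cells to 52.1% in suprabasal-like cells. The summed level of the 10 genes was 138 CPM (interval 130 to 147) in control and 179 CPM (168 to 192) in GOF sebaceous-like cells. In Ntrk2 Adh7 Ptprz1 cells it was 170 CPM (160 to 181) in control and 144 CPM (137 to 151) in GOF, and in suprabasal-like cells 77.8 and 59.3 CPM. At equal depth, a UMI of any member was found in 33.0% of the control keratinocytes and 32.9% in GOF, and in 62.2% and 72.6% at full depth, with UMIs from free RNA included.

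Hedgehog-high cells, the cells with raised Ptch1, Gli1 and related targets of SmoM2, had more Etv4 and Dusp6 than the other keratinocytes in both libraries and less Dusp4 and Dusp5. Etv4 was 18.1 CPM in them against 7.71 CPM in other keratinocytes of the control (ratio 2.34, interval 1.98 to 2.76). In GOF it was 15.9 against 6.16 CPM (ratio 2.58, interval 2.11 to 3.12). Dusp6 was 1.55-fold higher in control (interval 1.33 to 1.81) and 1.70-fold higher in GOF (1.41 to 2.04). Spred1 was higher by less than 1.5-fold, with ratios of 1.46 and 1.23. Dusp5 was 2.16-fold lower in control and 4.27-fold lower in GOF, and Dusp4 had 4 and 2 UMIs in these cells against 281 and 315 in the others, most of them in sebaceous-like cells. Etv5 was 2.64-fold lower in GOF (ratio 0.378, interval 0.214 to 0.622), and in control the interval held 1 (0.604 to 1.09).

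Past 1.5-fold, 2 of the 9 members with at least 50 UMIs were lower and 2 higher in control hedgehog-high cells, where 11.1% of all genes were lower and 27.8% higher. In GOF 4 of 10 were lower and 2 higher, where 12.9% of genes were lower and 27.5% higher. The 4 lower members include Spry4 with 3 UMIs in these cells, whose interval held 1. The median log2 ratio of the members was −0.12 in control and −0.33 in GOF, against 0.29 and 0.25 over all genes. When cells past more than 1 list were left out, the GOF median was 0.02.

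Suprabasal-like cells, the layer that basal cells enter as they differentiate, were compared with basal-like cells in each library. This comparison was chosen after the levels by state had been seen. Spred2 was 46.1 CPM in basal-like and 10.9 CPM in suprabasal-like cells of the control, 4.25-fold lower (ratio 0.236, interval 0.185 to 0.297). In GOF it was 53.0 and 9.87 CPM, 5.37-fold lower (ratio 0.186, interval 0.147 to 0.235). Spred1 was 2.39-fold and 3.09-fold lower, and Dusp6 2.48-fold and 2.29-fold lower. Etv5 was 4.999-fold lower in control, and in GOF 5 UMIs against 78 gave a ratio of 0.0608 (interval 0.0192 to 0.148). Spry1 and Spry2 had intervals that held 1 in both libraries, with ratios of 0.831 and 1.04 in control and 1.004 and 1.009 in GOF. Dusp5 ran the other way, 2.17-fold higher in suprabasal-like cells of the control (interval 1.27 to 3.75) and 2.09-fold higher in GOF with 33 and 15 UMIs (1.10 to 4.14).

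Of the members with at least 50 UMIs, 4 of 8 in control and 4 of 6 in GOF were lower by 1.5-fold (Dusp6, Spred1, Spred2 and Etv5 in both), and 1 and 0 were higher. Of all genes, 19.8% were lower and 11.2% higher in control, and 22.3% lower and 10.4% higher in GOF. The median log2 ratio was −0.88 and −1.41 over these members and −0.10 and −0.15 over all genes.

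**Figure D3:**
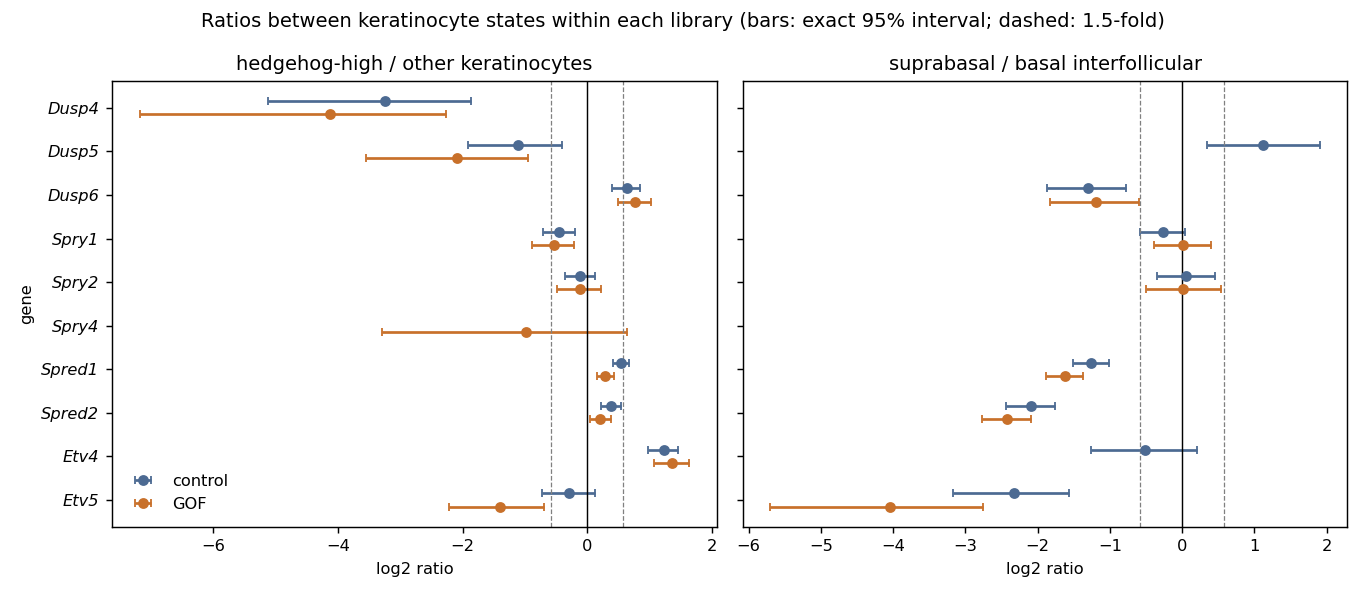
Log2 ratio of each member gene between hedgehog-high and other keratinocytes (left) and between suprabasal-like and basal-like cells (right), within the control (blue) and GOF (orange) library, for genes with at least 50 UMIs. Bars are exact 95% intervals and dashed lines mark 1.5-fold. Etv4 and Dusp6 lie to the right in the left panel, and Spred1, Spred2, Dusp6 and Etv5 to the left in the right panel.

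Because the libraries differed in sex, the ratios were also computed in male-called keratinocytes alone. Spry2 was then 16.3 CPM in control and 8.04 CPM in GOF (ratio 0.492, interval 0.423 to 0.570), and Spry1 17.4 and 10.8 CPM (ratio 0.622, interval 0.545 to 0.709). Etv4 had a ratio of 0.645 (interval 0.537 to 0.772), so that 3 members were lower past 1.5-fold. Dusp4 (ratio 1.78, interval 1.44 to 2.18) and Spry4 (ratio 2.01, 22 UMIs in GOF) were higher past it. The share of all genes past this fold was not computed in male-called cells, so these counts have no background beside them. Spred1 kept a ratio of 1.27 (interval 1.19 to 1.35). Within the GOF library, female-called cells had more Spry1 (ratio of female-called to male-called 1.30), Etv4 (1.32) and Spry2 (1.22) and less Dusp4 (0.409) than male-called cells. Among GOF sebaceous-like cells, the main source of Dusp4, 54.4% were male-called, against 23.3% of unassigned cells.

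**Figure D4:**
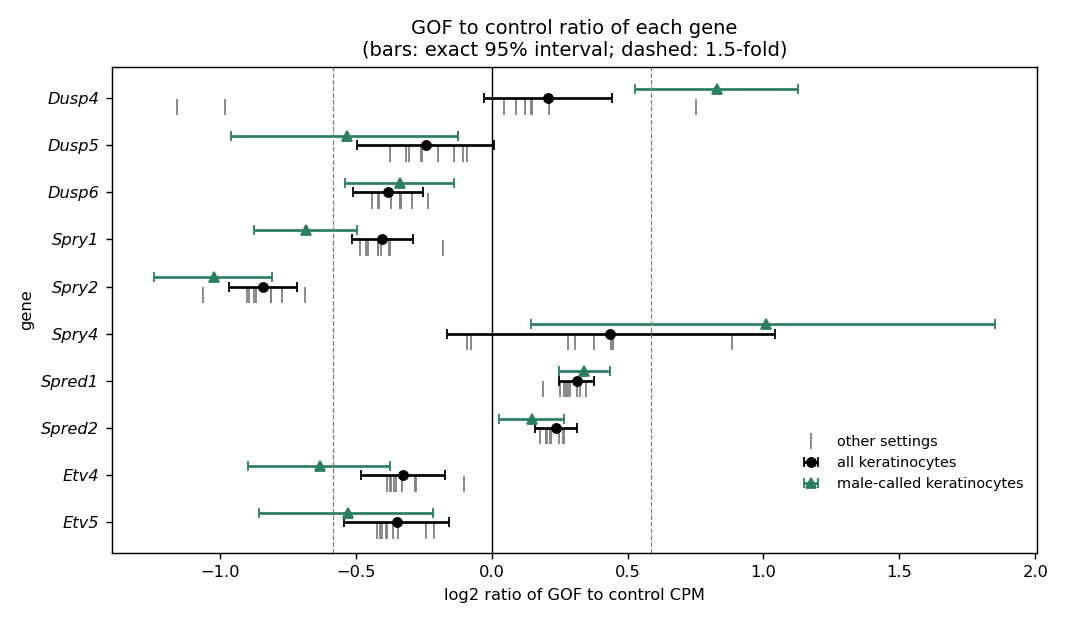
Log2 ratio of GOF to control CPM for each member gene in all keratinocytes (black, with exact 95% interval), in male-called keratinocytes (green triangles, with interval) and under the other settings tried (grey ticks). Dashed lines mark 1.5-fold. Spry2 is at −0.69 or lower at every setting shown, Spred1 and Spred2 stay above 0, and Dusp4 lies on both sides of 0.

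Mitotic keratinocytes, those with a core mitotic list at least 2-fold above expectation (1111 control, 479 GOF), had higher Etv4 than the rest, at 11.3 against 8.59 CPM in control and 9.74 against 6.83 CPM in GOF. Spry1 was 1.54-fold and 1.52-fold lower in them, and Dusp5 1.81-fold (interval of the ratio 0.340 to 0.852) and 1.83-fold (0.295 to 0.938) lower. Dusp4 had 4 UMIs in mitotic cells of the control (ratio 0.0956, interval 0.0259 to 0.247) and 29 in those of GOF (ratio 0.874, interval 0.575 to 1.28). Spred2 was higher by ratios of 1.2495 and 1.1435. Dusp6 was 1.59-fold lower in mitotic cells of GOF (interval of the ratio 0.472 to 0.819). In control that interval held 1 (0.783 to 1.12), and the difference between libraries was not tested. In control, Etv5 was higher (ratio 1.51, interval 1.19 to 1.88) and Spry2 lower (0.708, 0.591 to 0.843) in mitotic cells. In GOF both intervals held 1 (0.620 to 1.26 and 0.761 to 1.23). Mitotic cells were 20.1% of hedgehog-high and 1.64% of suprabasal-like cells in control, and 11.9% and 0.160% in GOF. The part of this mix of states in the ratios was not tested.

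Other genes of the pathway showed no common direction between the libraries. Of 6 EGF family ligands with at least 50 pooled UMIs, 1 was lower and 1 higher past 1.5-fold. Amphiregulin (Areg), a ligand of the EGF receptor, was 3.40 CPM in control and 1.17 CPM in GOF, 2.91-fold lower, and betacellulin (Btc) was 0.439 and 0.748 CPM. Of 7 receptors none passed the fold. The EGF receptor gene Egfr was 52.0 and 64.3 CPM, and Fgfr3 75.3 and 58.8 CPM. Of the 20 genes of the Ras to ERK cascade none passed it, with Nf1, which encodes neurofibromin, at 16.3 and 22.0 CPM and the adaptor Grb2 at 37.3 and 49.98 CPM. The list medians on the log2 scale were −0.09 for ligands, −0.16 for receptors and 0.005 for the cascade.

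Of 13 other feedback genes, 1 was lower past 1.5-fold, the phosphatase gene Dusp2 (7.30 against 4.76 CPM), while Dusp8 stood at 11.4 and 16.8 CPM (list median 0.05). Of 9 ERK output genes 2 were lower past 1.5-fold, Plaur (0.642 against 0.351 CPM, from 57 and 30 UMIs) and Phlda1 (23.1 CPM in control, 1.77-fold lower). In all, 4 of the 9 had ratios below 1 and 5 above it, none of these past 1.5-fold, and the list median was 0.18. Over the 14337 genes with at least 50 pooled UMIs, 41.2% of ratios were below 1. Of 10 genes known to respond to tissue handling, 7 had ratios below 1 and 3 above it, none past 1.5-fold, and the list median was −0.12. The largest differences were decreases. Atf3 was 17.0 CPM in control and 11.7 CPM in GOF, Nr4a1 5.66 and 3.97 CPM, and Zfp36 20.5 and 15.5 CPM. The summed level of the list went both ways by state. It was 1083 CPM in control and 1203 CPM in GOF basal-like cells, and 1039 and 968 CPM in hedgehog-high cells. The part of handling in the levels of the members was not tested.

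The members did not share one pattern across states. Over the 9 states, as a description within each library, log2 levels of Dusp6 and Spred1 had a Pearson r of 0.89 in control and 0.89 in GOF, and Dusp4 and Spry2 0.93 and 0.71. For Dusp4 and Spry1 the r was negative (−0.72 and −0.71). In the keratinocyte states other than the sebaceous one, Dusp4 was at most 1.26 CPM in control and 0.912 CPM in GOF. Its r values therefore lean on the sebaceous-like cells and do not describe an order over all states. States of a library share its depth and free RNA. The genes whose log2 levels were most like the mean of the members over the 18 combinations of state and library, among 5937 candidates, were Il17re (r = 0.91), Thbs1 (0.90), Tmem230 (0.90), Osgep (0.89) and Ptprs (0.89). Thbs1 is a marker of the basal list.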

How the data were processed

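The deposited values are raw UMI counts per gene and barcode. Per the file headers the authors used Cell Ranger 6.1.1. Seurat 4.2.0, R 4.3.0 and build mm10 are named in the submitters' processing notes. Cells with at least 1500 genes and at most 10% mitochondrial UMIs were kept (10993 control and 6922 GOF). Scrublet (through scanpy 1.11.5, Python 3.11.15) marked 0 doublets at its automatic threshold, so the top 6% of scores were removed (699 and 428 cells).

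A cell's state was the list with the highest (marker UMIs + 1) / (expected UMIs + 1), at least 2. UMIs were summed per library and state and divided by the state's total (CPM). Intervals are 95%: exact Poisson for CPM, exact conditional for ratios, Clopper-Pearson for shares. They cover counting error only. With 1 library per genotype no test was made. Shares of cells with a UMI were compared after thinning to 3000 UMIs. UMI counts at the 3′ end are compared within a gene, not between genes. The ratio, thinning and state functions were tested on simulated data. Gene positions are from GENCODE vM21, which held 32235 of 32286 feature identifiers.

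The members and gene lists were chosen with earlier results of these data known. Named genes are all 10 members, in each pathway list the 3 with the largest log2 ratio among those with at least 50 pooled UMIs (some are not repeated in the text), and the 5 genes most like the members' mean over states. Alternatives changed the scaling, filters, doublets, depth, weighting of states, marker threshold and lists.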

Additional observations from a re-analysis of the deposited data

Results flagged for a closer look

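Some member genes moved in opposite directions between the genotypes in different cells, with intervals that excluded 1 on each side. Dusp4, higher in GOF in sebaceous-like cells with a ratio of 1.87, was lower in unassigned keratinocytes with a ratio of 0.412. In those unassigned cells the summed sebaceous markers were also lower in GOF (154 CPM, with 557 CPM for the control), and their part in the Dusp4 level was not tested. Spred2 was higher in basal-like (ratio 1.15), sebaceous-like (1.71) and unassigned cells (1.35) and lower in scale-like cells (0.692). Its interval in basal-like cells was 1.01 to 1.31, where the median log2 ratio of all genes was 0.06. These results were picked from 90 comparisons of a member in a state, of which 26 had intervals below 1 and 10 above. The differences between the states were not tested.

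Signals also appeared in cells outside the keratinocytes, above the level in the control library. In cells taking the melanocyte list (253 control, 133 GOF), the GOF to control ratio was 5.35 for Dusp4 (4.22 against 22.6 CPM, interval 2.81 to 11.04), 2.01 for Dusp6, 1.83 for Spred1 and 1.49 for Spred2. Melanocyte markers led these cells in both libraries, and 20.3% of the GOF cells were male-called against 77.9% of the control cells. The sebaceous list summed to 971 and 838 CPM in them, and its part in the Dusp4 level was not tested. In the Dcn-rich cells the ratio was 1.16 for Spred1 and 1.26 for Etv4. Other members were lower there, with ratios of 0.414 for Etv5 (interval 0.228 to 0.737), 0.579 for Spry1 (0.431 to 0.778) and 0.752 for Spry2 (0.572 to 0.990), and Dusp4 had 9 UMIs in control and none in GOF.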

How the results depend on the processing

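The median log2 ratio of the members between genotypes stayed below 0 under all 10 alternatives, and so did the ratios of Spry2, Spry1, Dusp6, Dusp5, Etv4 and Etv5, while Spred1 and Spred2 stayed above 0. The log2 ratio of Dusp4 ranged from −1.16 to 0.83 and that of Spry4 from −0.09 to 1.01. The count of members lower by 1.5-fold was 1, and it was 3 in male-called cells, 2 at no more than 5% mitochondrial UMIs, 2 without the sebaceous-like cells, 5 at the smaller fold tried and 0 at 2-fold. The count higher was 0, and it was 2 in male-called cells, 2 with states weighted equally and 1 at the smaller fold. At 1.5-fold, the background shares were 3.33% lower and 2.82% higher over genes with at least 500 pooled UMIs. Over genes with 1 UMI in each library they were 11.4% and 11.1%. No share of all genes between genotypes was computed at the smaller fold, at 2-fold or under the alternative settings. The member counts given for these therefore have no background beside them. Median-of-ratios scaling moved all log2 ratios by 0.06. The hedgehog-high median of the control stayed below 0 under all its alternatives, and that of GOF changed sign, to 0.02, when cells past more than 1 list were left out. At a marker ratio of at least 3 the suprabasal-like to basal-like median was −1.52 in control and −0.98 in GOF. The causes were not tested. Leaving out the sebaceous-like cells, leaving Dcn and Egfl7 out of the lists and the suprabasal-like comparison were chosen after seeing the data. No paired analysis was possible because each genotype has 1 library, and for the same reason no replicate could be left out. Depth limits Spry4, Dusp4 outside sebaceous-like cells and Etv5 in suprabasal-like cells, which rest on few UMIs.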
